A study of Mus musculus with 6 samples.

Results

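The VEGF system was read here through 10 genes, the ligand genes Vegfa, Vegfb, Vegfc, Vegfd and Pgf, the receptor genes Flt1, Kdr and Flt4, and the neuropilin genes Nrp1 and Nrp2. They were chosen by gene name among the 19057 genes that the array's annotation names, and every probe given to them was followed, 23 in all. RNA was taken at E18.5 from 3 whole lungs of R26Foxf1; Tie2-cre embryos, with 3 of R26-LSL-Foxf1 embryos as the control. Both groups carried a Foxf1 cDNA knocked in at the ROSA26 locus behind a lox-STOP-lox cassette. In R26Foxf1; Tie2-cre embryos the Tie2-cre transgene, which is active in endothelial and hematopoietic lineages, removes the STOP, and the control genotype names no Cre. Each lung was hybridized to 1 Illumina mouse WG-6 v2.0 BeadChip array. The study calls the controls littermates, but nothing in the labels says which embryos shared a litter.

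VEGF ligands are secreted dimers that bind tyrosine kinase receptors on endothelial cells. VEGFA, made in the lung largely by alveolar epithelium, acts mainly through KDR (also called FLK1), while FLT1 binds VEGFA, VEGFB and placental growth factor and can hold VEGFA away from KDR. VEGFC and VEGFD bind FLT4, the receptor of lymphatic endothelium. The neuropilins have short cytoplasmic tails, present VEGF to the kinase receptors and also bind class 3 semaphorins.

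None of the 10 genes passed the threshold in either direction. The 23 probes divided by detection, which is a p-value for the probe's signal against the array's negative control probes: 13 had a detection p under 0.01 on all 6 arrays, 8 on none, and 2 on some. The 14 probes detected on at least 3 arrays were tested and cover 9 genes, all but Kdr. With limma, 0 of these 14 had a Benjamini-Hochberg adjusted p under 0.05 together with a fold change of at least 1.2, where 4.51% of the 20118 tested probes did (2.43% higher and 2.09% lower in R26Foxf1; Tie2-cre lungs). At an unadjusted p under 0.05 with the same fold limit there were 2, 1 of Nrp1 and 1 of Nrp2, both higher, and 24.9% of all tested probes passed that looser rule (13.4% higher). The median log2 fold change over the 14 probes was 0.13, against 0.03 over all tested probes, and the median absolute value was 0.15, against 0.18. All 14 of their 95% intervals still held a 1.2-fold change in at least 1 direction, so 3 lungs per group do not bound these genes within that limit. Whole-lung RNA cannot tell fewer cells of a type and less RNA per cell apart.

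**Figure D1:**
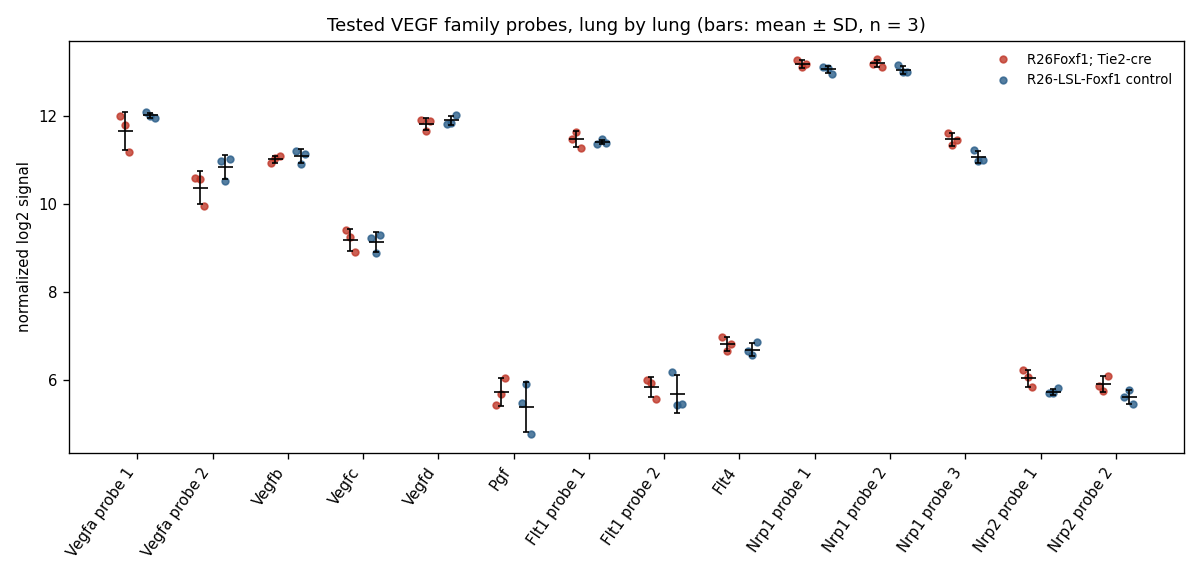
Normalized log2 signal (y axis) of the 14 tested probes (x axis), 1 point per lung, R26Foxf1; Tie2-cre in red and R26-LSL-Foxf1 control in blue, with mean ± SD of 3 lungs. Points of the groups are apart only for Nrp1 probe 3 and Nrp2 probe 1; the heights of different probes are not comparable.

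Markers of lung cells were present. All 10 listed alveolar type 1 genes, all 9 alveolar type 2 genes and 18 of 21 pan-endothelial genes were tested, and Erg, Ecscr and Clec14a were not. Between 19831 and 20043 probes per lung were detected. Foxf1 had a log2 signal of 10.77 to 10.93 in R26Foxf1; Tie2-cre lungs and 10.15 to 10.77 in control lungs, with an adjusted p of 0.285 from limma for a log2 fold change of 0.31, and whether its probe reads the knocked-in copy is unknown. R26Foxf1; Tie2-cre replicate 3 was the 1 lung with Y-linked Eif2s3y and without Xist. Skeletal and heart muscle genes, centred on their means, averaged −2.43 to 0.26 in R26Foxf1; Tie2-cre lungs and 0.02 to 1.71 in control lungs. In 5 of the 10 tested, every R26Foxf1; Tie2-cre lung was below every control lung, while groups were apart in 29.4% of all tested genes. These were Acta1, Myh8, Mylpf, Tnnt3 and Tnni2, with log2 fold changes of −3.06 to −2.43. The groups overlapped for Ckm, Myh6, Myl7, Nppa and Actc1, and 0 of the 10 passed the threshold. The part of the Xist and Eif2s3y readings and of the muscle genes in the results was not tested.

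Promoter sequences are shown for Nrp1 and Vegfa, the members with the largest positive and negative log2 fold changes, and for Kdr, the receptor gene without a detected probe. They come from RefSeq, build GRCm38.p6, which lists 12 starts for the 10 genes, each with 250 bases before the start and 50 after it; of 2 Vegfa starts the upstream one is shown. Capitals mark the GC box GGGCGG or its reverse complement CCGCCC, a letter pattern bound by SP1-type factors.
Nrp1 promoter, chr8:128358823-128359122, plus strand: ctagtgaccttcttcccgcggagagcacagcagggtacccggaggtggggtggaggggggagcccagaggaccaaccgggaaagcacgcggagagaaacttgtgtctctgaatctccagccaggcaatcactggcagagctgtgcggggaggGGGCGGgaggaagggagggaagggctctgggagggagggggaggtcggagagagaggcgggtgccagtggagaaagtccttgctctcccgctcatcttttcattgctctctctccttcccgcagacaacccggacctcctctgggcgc
Vegfa promoter, chr17:46032328-46032627, minus strand: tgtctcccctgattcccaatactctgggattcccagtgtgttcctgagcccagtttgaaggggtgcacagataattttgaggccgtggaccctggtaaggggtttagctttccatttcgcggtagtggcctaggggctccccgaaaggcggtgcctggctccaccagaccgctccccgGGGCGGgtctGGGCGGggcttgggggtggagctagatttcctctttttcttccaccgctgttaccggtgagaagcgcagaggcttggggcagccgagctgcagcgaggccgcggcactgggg
Kdr promoter, chr5:75978406-75978705, minus strand: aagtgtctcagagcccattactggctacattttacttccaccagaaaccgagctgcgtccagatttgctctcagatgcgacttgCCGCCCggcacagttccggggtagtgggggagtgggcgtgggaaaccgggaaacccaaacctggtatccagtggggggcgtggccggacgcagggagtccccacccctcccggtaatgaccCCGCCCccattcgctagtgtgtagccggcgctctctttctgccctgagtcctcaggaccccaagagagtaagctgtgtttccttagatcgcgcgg
A GC box was present in 10 of the 12 windows and in 35.7% of all 32851 promoters of that length. The forkhead core TAAACA or TGTTTA was found in 1 of the 12, that of Vegfb, and in 13.4% of all promoters. The hypoxia response core ACGTG or CACGT was found in 1 of the 12, the downstream Vegfa start, and in 19.6% of all promoters. Of the 3 patterns the printed windows hold the GC box only, and a match is a description of letters only.

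Vegfa had lower means in R26Foxf1; Tie2-cre lungs by both of its detected probes, with 1 lung well below the others. The brighter probe (ILMN_2484527) read 12.00, 11.78 and 11.17 in R26Foxf1; Tie2-cre replicates 1 to 3, against 12.07, 11.98 and 11.95 in control lungs. The other (ILMN_3121255) read 10.59, 10.56 and 9.94 in R26Foxf1; Tie2-cre lungs, against 10.97, 10.52 and 11.01 in control lungs. On each probe R26Foxf1; Tie2-cre replicate 3 was the lowest of the 6 lungs, and the groups overlapped. That lung was also the 1 with Eif2s3y and without Xist, and the part of this in the Vegfa values was not tested. The means were 11.65 ± 0.43 and 12.00 ± 0.06 (SD, n = 3 each) on the brighter probe, a log2 fold change of −0.35 (standard error 0.20, 95% interval −0.82 to 0.12, adjusted p = 0.305 from limma). On the other they were 10.37 ± 0.37 and 10.83 ± 0.27 (SD, n = 3 each), a log2 fold change of −0.47 (interval −0.96 to 0.02, adjusted p = 0.207). Without R26Foxf1; Tie2-cre replicate 3 the log2 fold changes were −0.11 and −0.26. The probes did not differ in response beyond the spread of the lungs (difference of log2 fold changes 0.12, exact permutation test, two-sided p = 0.5). Another Vegfa probe (ILMN_3045723) was detected on no array.

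Other lung genes were low in the same lung. The 9 alveolar type 1 genes other than Vegfa, each centred on its mean over the 6 lungs, averaged −0.03, 0.15 and −0.35 in R26Foxf1; Tie2-cre replicates 1 to 3 and 0.13, −0.06 and 0.16 in control replicates 1 to 3. Their summed linear signal was 64419 to 83878 in R26Foxf1; Tie2-cre lungs and 69016 to 80951 in control lungs, with R26Foxf1; Tie2-cre replicate 3 the lowest. None of these 9 passed the threshold and none was undetected. The average of the 9 alveolar type 2 genes was also lowest in that lung. Of these genes, Sftpb, Sftpa1, Sftpd and Lamp3 were lowest there, and the others had their lowest value in another lung. Lpcat1 read highest there, at 9.88. The 9 genes averaged −0.07, 0.10 and −0.16 in R26Foxf1; Tie2-cre replicates 1 to 3 and 0.12, −0.06 and 0.07 in control replicates 1 to 3. The part of either list in the Vegfa values was not tested. Of all tested genes outside the family, Aqp1, which encodes a water channel of capillary endothelium, followed the brighter Vegfa probe most closely (Pearson r = 0.985 over 6 lungs), ahead of the transcriptional repressor gene Zbtb18 and the cilia gene Cfap53 (r = 0.982 each). They are the highest of the correlations with tested genes, over 6 arrays on which 1 lung stands apart, and none of the 3 genes passed the threshold.

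**Figure D2:**
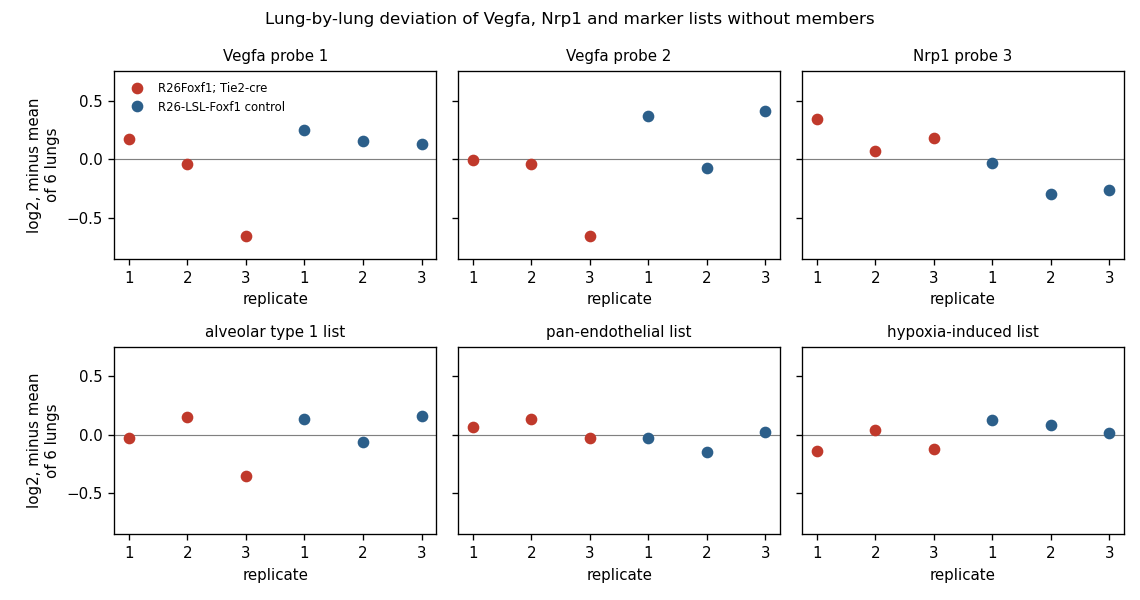
Log2 signal of Vegfa and Nrp1 probes and mean of 3 gene lists without family members, each minus its mean over the 6 lungs (y axis), by replicate (x axis), R26Foxf1; Tie2-cre in red and R26-LSL-Foxf1 control in blue. R26Foxf1; Tie2-cre replicate 3 is the lowest lung on both Vegfa probes and in the alveolar type 1 list (−0.35), whereas every R26Foxf1; Tie2-cre lung is above every control lung on Nrp1 probe 3.

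The groups overlapped for each of the remaining ligands. Vegfb, a ligand of FLT1, averaged 11.01 ± 0.08 in R26Foxf1; Tie2-cre lungs and 11.08 ± 0.15 in control lungs (SD, n = 3 each), with an interval of −0.33 to 0.20 for the log2 fold change. Vegfd, a FLT4 ligand that is abundant in fetal lung mesenchyme, averaged 11.80 ± 0.14 and 11.89 ± 0.10 (SD, n = 3 each; interval −0.35 to 0.18). Vegfc, the main ligand for lymphatic growth, read 9.39, 9.24 and 8.89 in R26Foxf1; Tie2-cre lungs, against 9.22, 8.88 and 9.30 in control lungs, and its log2 fold change of 0.05 (interval −0.34 to 0.44) changed sign when single lungs were left out. Adjusted p values of these 3 genes were 0.664 to 0.888. Pgf, which encodes placental growth factor, was near background, with 5.44, 5.68 and 6.05 in R26Foxf1; Tie2-cre lungs, against 5.49, 5.90 and 4.76 in control lungs, where control replicate 3 was not detected. Its log2 fold change was 0.34 (interval −0.33 to 1.01, adjusted p = 0.489). Leaving out control replicate 3 gave 0.03, leaving out control replicate 2 gave 0.60, and the value was 0.06 with the deposited values, the authors' own normalized table.

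Among the receptors, Kdr could not be compared, because neither of its probes was detected on any array. The probe tied to the RefSeq mRNA (ILMN_2665788) had deposited signals of 5.09, 20.02 and 17.4 in R26Foxf1; Tie2-cre lungs, against 9.53, 8.04 and 13.9 in control lungs. The lowest signals that were detected lay between 24.0 and 26.3 on the 6 arrays. Detection p values of this probe were 0.183, 0.0256 and 0.0246 in R26Foxf1; Tie2-cre lungs and 0.0855, 0.118 and 0.0470 in control lungs, so 3 of the 6 lungs were under 0.05 and none under 0.01. The second Kdr probe (ILMN_2572649) had signals of −1.20 to 3.67 in R26Foxf1; Tie2-cre lungs and 0.107 to 8.12 in control lungs. No fold change is given for a probe that was not detected in either group, and these readings say nothing on the level of Kdr mRNA, since a probe can fail to capture its transcript. On the same arrays Tek, which encodes the endothelial receptor TIE2, was detected in every lung at 11.00 to 11.22 in R26Foxf1; Tie2-cre lungs and 10.99 to 11.21 in control lungs.

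**Figure D3:**
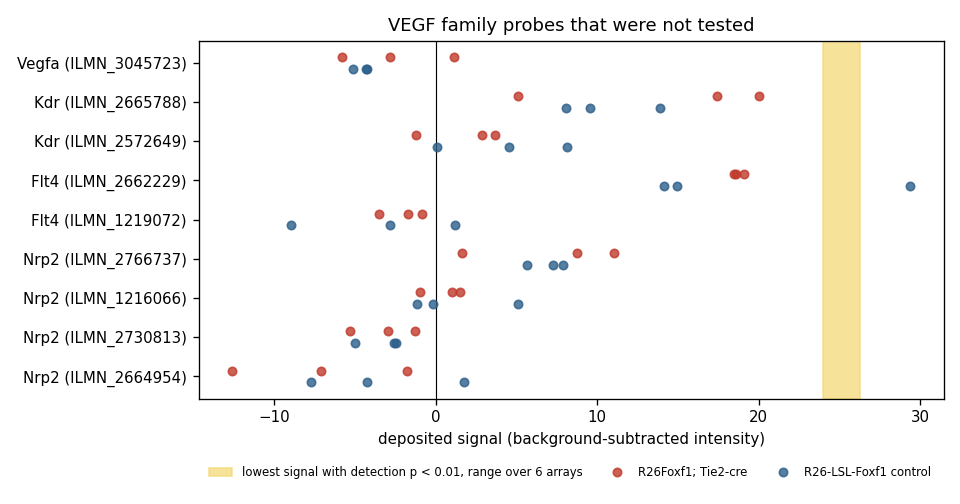
Deposited signal (x axis, background-subtracted intensity) of the 9 family probes that were not tested (y axis), 1 point per lung, R26Foxf1; Tie2-cre in red above R26-LSL-Foxf1 control in blue. The yellow band spans the lowest detected signals of the 6 arrays, 24.0 to 26.3; all points lie left of it except 1 control lung of a Flt4 probe.

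Flt1 read nearly level. Its brighter probe (ILMN_1227926) had 11.48, 11.63 and 11.27 in R26Foxf1; Tie2-cre lungs, against 11.36, 11.46 and 11.37 in control lungs. The control values lay inside the range of the R26Foxf1; Tie2-cre values, and the log2 fold change was 0.06 (standard error 0.12, interval −0.22 to 0.33, adjusted p = 0.786 from limma). The second Flt1 probe (ILMN_2732721) was dim, with 5.57 to 6.01 in R26Foxf1; Tie2-cre lungs and 5.43 to 6.17 in control lungs (log2 fold change 0.16, interval −0.36 to 0.67, adjusted p = 0.687). With 1 lung left out its value was 0.03 (without control replicate 2) to 0.40 (without control replicate 1), and 0.03 with the deposited values. Flt4 was read by 1 of its 3 probes (ILMN_2611439), at 6.97, 6.65 and 6.83 in R26Foxf1; Tie2-cre lungs, against 6.65, 6.56 and 6.85 in control lungs. The groups overlapped, with a log2 fold change of 0.13 (interval −0.16 to 0.42, adjusted p = 0.550). This value was 0.05 without R26Foxf1; Tie2-cre replicate 1, 0.06 without control replicate 2, 0.21 without R26Foxf1; Tie2-cre replicate 2 or control replicate 3, 0.04 with the deposited values, 0.04 with median scaling and 0.07 with cyclic loess. Another Flt4 probe (ILMN_2662229) stayed under the detection limit in all but control replicate 3, with deposited signals of 19.1, 18.6 and 18.4 in R26Foxf1; Tie2-cre lungs, against 14.2, 14.9 and 29.4 in control lungs. The last (ILMN_1219072) was detected on no array.

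The neuropilins had higher means in R26Foxf1; Tie2-cre lungs on all 5 of their tested probes, without passing the threshold. By their brightest probe, 57.7% of all tested genes also had higher means. Nrp1, the VEGFA coreceptor of arterial and capillary endothelium, was measured with 3 probes. The dimmest (ILMN_1247094, probe 3 in the plots), which the annotation ties to a cDNA clone and not to a RefSeq mRNA, read 11.60, 11.33 and 11.43 in R26Foxf1; Tie2-cre lungs, against 11.23, 10.96 and 11.00 in control lungs. The groups did not overlap. The means were 11.46 ± 0.14 and 11.06 ± 0.14 (SD, n = 3 each), a 1.32-fold difference (log2 fold change 0.40, standard error 0.12, interval 0.11 to 0.68, adjusted p = 0.0967 from limma). Its adjusted p was 0.106 to 0.232 with any 1 lung left out. The 2 brighter probes, both tied to the RefSeq mRNA, overlapped between the groups. They read 13.09 to 13.27 (ILMN_1237197) and 13.10 to 13.27 (ILMN_2669912) in R26Foxf1; Tie2-cre lungs, against 12.95 to 13.11 and 12.98 to 13.14 in control lungs. Their log2 fold changes were 0.13 (interval −0.11 to 0.36) and 0.15 (interval −0.09 to 0.38), with adjusted p values of 0.464 and 0.394. These log2 fold changes were 0.08 and 0.10 with median scaling, 0.07 and 0.09 with cyclic loess, and 0.15 and 0.17 with the deposited values.

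Within each lung, the brightest Nrp1 probe exceeded the dimmest by 1.66, 1.76 and 1.72 on the log2 scale in R26Foxf1; Tie2-cre lungs, against 1.88, 2.12 and 1.95 in control lungs. These gaps did not overlap (two-sided p = 0.1 by exact permutation, which 3 lungs against 3 cannot go below), and the adjusted p over the 5 probe pairs compared in the family was 0.5. The 2 brighter probes had a gap of −0.18 to 0.09 in R26Foxf1; Tie2-cre lungs and −0.04 to 0.11 in control lungs (exact permutation test, p = 0.8). In the other pairs, of Vegfa, Flt1 and Nrp2, the exact p values were 0.5, 0.8 and 0.9.

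Nrp2, the coreceptor of veins and lymphatics, was dim. Only 2 of its 6 probes were detected, each on all 6 arrays. The first (ILMN_3136656, probe 1 in the plots) read 6.22, 6.06 and 5.84 in R26Foxf1; Tie2-cre lungs, against 5.69, 5.69 and 5.81 in control lungs, so the groups were apart by a narrow margin. Its log2 fold change was 0.30 (standard error 0.12, interval 0.02 to 0.59, adjusted p = 0.168). The second (ILMN_2480957) read 5.85, 5.74 and 6.10 in R26Foxf1; Tie2-cre lungs, against 5.61, 5.77 and 5.46 in control lungs, and overlapped (log2 fold change 0.29, interval −0.02 to 0.59, adjusted p = 0.220). With the deposited values the log2 fold changes of these 2 probes were 0.07 and 0.06, with median scaling 0.20 and 0.18, and the second was 0.19 without R26Foxf1; Tie2-cre replicate 3. Of the 14 tested family probes, the groups were apart in 2, both higher in R26Foxf1; Tie2-cre lungs, while 31.9% of all tested probes had groups apart (18.5% higher and 13.4% lower).

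**Figure D4:**
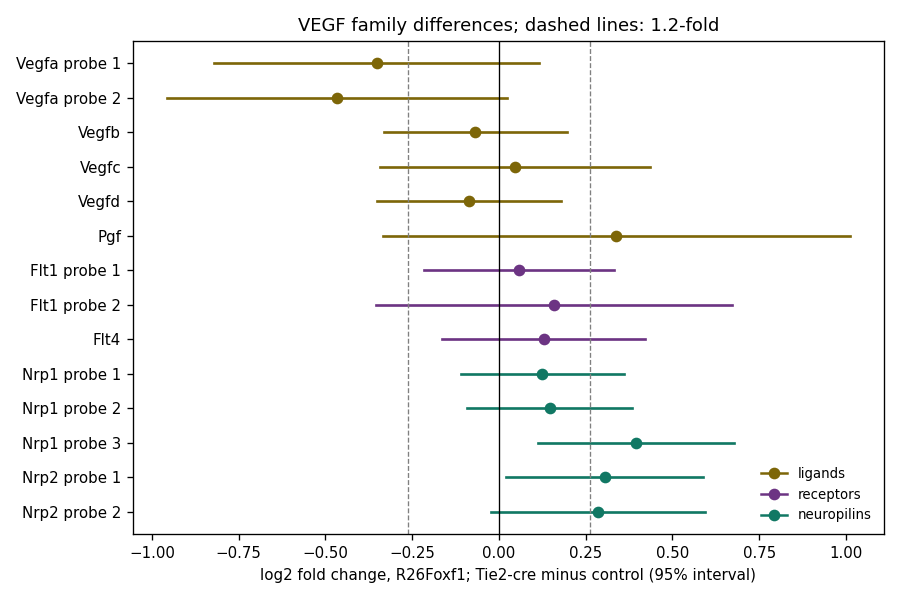
Log2 fold change, R26Foxf1; Tie2-cre minus R26-LSL-Foxf1 control (x axis), of the 14 tested probes (y axis), with the estimate as a point and the 95% interval as a line, coloured by role. Intervals exclude 0 only for Nrp1 probe 3 (0.11 to 0.68) and Nrp2 probe 1 (0.02 to 0.59), and each reaches past a dashed line at 1.2-fold.

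Endothelial genes stood beside the neuropilins. The 18 tested pan-endothelial genes, centred on their means, averaged 0.06, 0.13 and −0.03 in R26Foxf1; Tie2-cre lungs, against −0.03, −0.15 and 0.02 in control lungs. Their summed linear signal was 80355 to 89388 in R26Foxf1; Tie2-cre lungs and 75481 to 82421 in control lungs. The groups overlapped on both measures, 13 of the 18 genes had higher means, and 0 passed the threshold with limma (5 had an unadjusted p under 0.05, as did 22% of all tested genes). Of 7 tested lymphatic endothelial genes 0 passed, with 1 at an unadjusted p under 0.05. Whether endothelial content takes part in the neuropilin values was not tested.

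The wider pathway was followed through 6 lists of 190 other genes written from general knowledge, of which 177 had a probe and 140 were tested. By its brightest probe, 3 of these rose and 2 fell in R26Foxf1; Tie2-cre lungs, 5 of 140, while 2.98% of all 11080 tested genes passed the threshold (1.54% higher and 1.44% lower). The median log2 fold change was 0.08 over the 140 genes and 0.05 over all genes. Means were higher in R26Foxf1; Tie2-cre lungs for 89 of the 140, against 57.7% of all genes, and groups were apart in 53, against 29.4%. By any tested probe 11 of the 140 genes passed, against 5.79% of all tested genes. Itgav, which encodes the αv integrin subunit that pairs with β3 beside KDR, rose among 32 tested regulators of the receptors. It read 8.58, 8.44 and 8.48 in R26Foxf1; Tie2-cre lungs, against 7.96, 7.81 and 7.79 in control lungs, a log2 fold change of 0.65 (adjusted p = 0.0313 from limma). Aplnr, the apelin receptor gene, was the 1 of 25 VEGF-responsive endothelial genes that passed. It read 10.48, 10.42 and 10.68 in R26Foxf1; Tie2-cre lungs, against 9.95, 10.04 and 9.96 in control lungs, a log2 fold change of 0.55 (adjusted p = 0.0431 from limma). In both genes every R26Foxf1; Tie2-cre value exceeded the control values. Higher means were found for 27 of the 32 receptor regulators, with a list median of 0.13, and for 18 of the 25 responsive genes, with a median of 0.12.

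Signal transduction had 1 gene in each direction among 45. Pik3r3, a regulatory subunit gene of phosphoinositide 3-kinase, rose to 9.84 ± 0.17 in R26Foxf1; Tie2-cre lungs, against 9.29 ± 0.09 in control lungs (SD, n = 3 each; log2 fold change 0.55, adjusted p = 0.0489). Pak2, a kinase gene that links receptor signals to the cytoskeleton, fell to 7.81 ± 0.12, against 8.43 ± 0.20 in control lungs (SD, n = 3 each; log2 fold change −0.62, adjusted p = 0.0466). Among 12 tested hypoxia-induced genes P4ha1, which encodes a collagen prolyl hydroxylase subunit, fell. It stood at 7.91 ± 0.26 in R26Foxf1; Tie2-cre lungs and 8.76 ± 0.16 in control lungs (SD, n = 3 each; log2 fold change −0.85, adjusted p = 0.0393), and 9 of the 12 had lower means, with a list median of −0.11. With limma, 0 of the 12 hypoxia regulators of Vegfa and 0 of the 16 genes of ligand processing and matrix binding passed. At an unadjusted p under 0.05 there were 3 and 7, against 22% of all tested genes. The lowest p among the regulators was that of Hif3a (log2 fold change 0.41, adjusted p = 0.0563 from limma). Hif1a and Epas1 went the other way, at −0.66 (adjusted p = 0.0607) and −0.58 (adjusted p = 0.136). Of the 12 regulators 7 had higher means and 5 lower, with a list median of 0.04. Among the processing genes the lowest p was that of the syndecan gene Sdc1 (−0.69, adjusted p = 0.0633), while 11 of the 16 had higher means. All 5 genes past the threshold kept their direction with 1 lung left out, but whether they passed depended on single lungs. Log2 fold changes in these fits were 0.61 to 0.70 for Itgav, 0.47 to 0.60 for Aplnr and 0.45 to 0.61 for Pik3r3. They were −0.73 to −0.55 for Pak2 and −0.99 to −0.74 for P4ha1. Fits with fewer lungs also have less precision. With 1 lung left out, Itgav and P4ha1 passed in 2 of the 6 fits, Pak2 and Aplnr in 1 and Pik3r3 in 0, with adjusted p values up to 0.157. None of the 5 passed with no filter on dim probes or by the methods' t-test, Itgav alone passed with detection at 0.05 on at least 1 array, and Pik3r3 did not pass with cyclic loess.

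**Figure D5:**
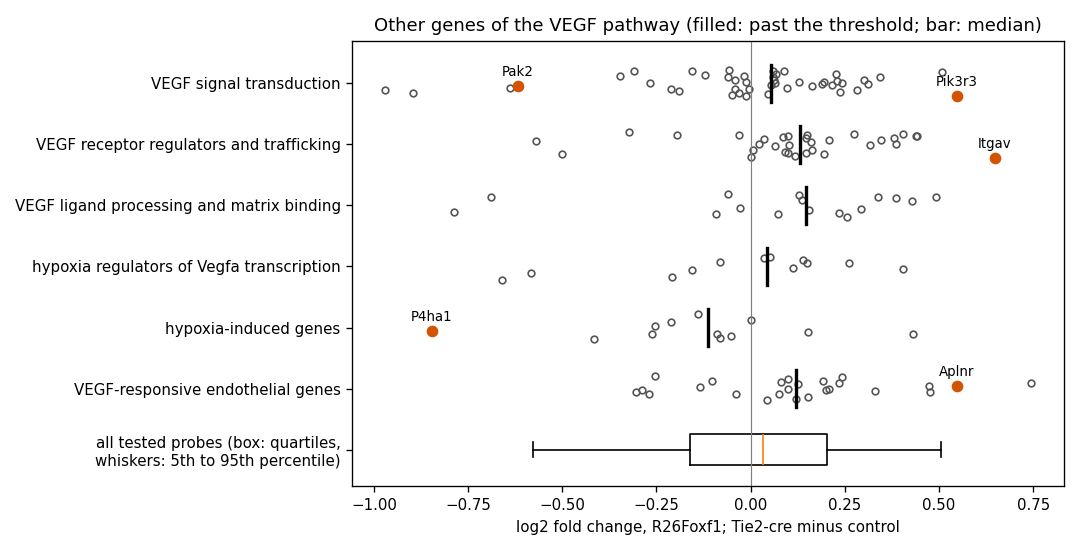
Log2 fold change, R26Foxf1; Tie2-cre minus R26-LSL-Foxf1 control (x axis), of each tested gene in 6 lists of the VEGF pathway (y axis), with a bar at each list's median and a box for all 20118 tested probes. The 5 filled and named genes passed the threshold; Itgav, Pik3r3 and Aplnr lie to the right and Pak2 and P4ha1 to the left.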

How the data were processed

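Expression was measured on Illumina mouse WG-6 v2.0 BeadChips in 6 lungs, 1 per array. The authors deposited a background-subtracted signal intensity for each of 45281 probes, scaled to a common mean of 508.1, with 25.5% to 28.5% of values per lung below 0. The authors deposited a detection p-value beside each signal. A second table that the authors deposited holds log2-like values made with lumi by robust spline normalization and variance stabilization; scanner software and the lumi version are not given in the sources used here. Its values were used as an alternative.

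Computations used limma 3.58.1 in R 4.3.3. Background was estimated by neqc from the detection p values, and the corrected signals, with 16 added, were converted to log2 and made equal in distribution (quantile normalization). Tested were the 20118 probes whose detection p was below 0.01 on 3 or more arrays, by lmFit and eBayes, with Benjamini-Hochberg adjustment over all of them and thresholds of 0.05 and 1.2-fold, as in the study's methods. Intervals are 95% intervals of the moderated fit. Replicate numbers were not used as pairs in the main comparison. The number of lungs limits precision, and p values measure only the spread between these lungs.

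Probes were named through the array's annotation with symbols updated by gene ID (GRCm38.p6 table). Of all probes, 34885 had 1 symbol, 18 several and 10378 none; 34807 were matched by ID. A gene outside the family was represented by its brightest tested probe. The members, lists and tests were chosen with earlier results of these data known. Named were all member probes and up to 3 genes past the threshold per pathway list (otherwise the lowest p). Markers by list and the 3 genes most correlated with Vegfa were also named. For Kdr no correlated genes could be found, as it had no tested probe. Hif1a, Epas1 and Car9 were named outside this rule. Alternatives covered background correction, normalization, the filter, the variance model, the methods' t-test, the thresholds, averaging a gene's probes, a replicate block and leaving out each lung. The comparison was tested on simulated data.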

Additional observations from a re-analysis of the deposited data

How the results depend on the processing

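The family count of 0 was unchanged under 4 other normalizations or background settings, 3 other filters, a fit with array weights, the t-test of the methods on either table (1 family probe, of Nrp1, at its unadjusted p on each), no fold limit, a 1.5-fold limit and each lung left out. It became 1 probe of 1 gene, Nrp1, with a variance trend and robust moderation (adjusted p = 0.0341) and at an adjusted p under 0.1, and 2 probes of 2 genes, Nrp1 and Nrp2, at an unadjusted p. The 5 pathway genes became 13 with the deposited values, 11 with detection on all 6 arrays, 1 with detection at 0.05 on at least 1 array, 0 with no filter, 16 with the trend, 21 with array weights, 0 with the t-test on either table (18 unadjusted on the deposited and 27 on the neqc values), 25 at an adjusted p under 0.1, 35 unadjusted, 3 at 1.5-fold and 2 by the mean of a gene's probes. Over the lungs left out it was 0 to 11, highest without control replicate 2 and 0 without control replicate 1 or R26Foxf1; Tie2-cre replicate 1 or 3. Of all tested probes 908 passed. This count was 250 with detection at 0.05 on at least 1 array, 58 with no filter, 1864 with the trend and 2491 with array weights. With the t-test on either table it was 0. At the unadjusted p of that test, 1838 of the 20118 probes passed on the deposited values and 3516 on the neqc values. The count was 2680 at an adjusted p under 0.1, 5011 unadjusted, and 2 to 1704 with 1 lung left out. Fewer lungs also mean less precision. The cause of the other changes was not tested.

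Over all tested probes, deviations of same-numbered lungs correlated at 0.29, −0.04 and −0.03. With so few lungs per group, these values cannot decide whether lungs with the same number were pairs. With a replicate block, 0 family probes, 0 pathway genes and 46 of all tested probes passed, and only the lungs numbered 1 correlated best with each other. Directions of member probes turned for Vegfc with array weights (−0.0090) and without R26Foxf1; Tie2-cre replicate 1 (−0.062) or control replicate 2 (−0.082, in a range of −0.082 to 0.19 over the lungs left out). They turned for the brighter Flt1 probe without R26Foxf1; Tie2-cre replicate 2 (−0.026, in a range of −0.026 to 0.15) and for the dimmer Flt1 probe with array weights (−0.079).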

Other observations

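Macrophage and monocyte genes, a hematopoietic group in which Tie2-cre is active, had lower means in R26Foxf1; Tie2-cre lungs for all 8 tested, where 57.7% of all tested genes had higher means. Of these 8, 1 passed the threshold, against 2.98% of all tested genes (1.44% lower). It was Fcgr1, which encodes a high-affinity immunoglobulin receptor and fell to 6.52 ± 0.08, against 6.99 ± 0.06 in control lungs (SD, n = 3 each; log2 fold change −0.47, adjusted p = 0.0452 from limma). Log2 fold changes were −1.09 for the lysozyme gene Lyz2 (adjusted p = 0.0816) and −0.46 for the mannose receptor gene Mrc1 (adjusted p = 0.0747). Centred on their means, the 8 genes averaged −0.35, −0.06 and −0.20 in R26Foxf1; Tie2-cre lungs, against 0.21, 0.20 and 0.20 in control lungs. Their part in the values of the VEGF family was not tested. In the VEGF pathway 6 genes passed the threshold only by a probe that was not the brightest. In 3 of these the brightest probe had the opposite sign. For Rcan1, a calcineurin inhibitor gene, the log2 fold changes were −1.05 by the dimmer probe and 0.20 by the brightest, for the phosphatase gene Ptpn12 −0.65 and 0.10, and for Pik3r2 0.49 and −0.01. In Pgk1, a glycolysis gene, the signs were the same (−1.13 by the dimmer probe and −0.25 by the brightest). These 4 genes were chosen after their values were seen.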
